A study of Mus musculus with 6 samples.

Results

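The tripartite motif (TRIM) genes described here are 10 mouse genes linked to interferon: Trim30a, Trim30b, Trim30c, Trim30d, Trim12a, Trim12c, Trim34a, Trim21, Trim14 and Trim26. They were taken by symbol from a table of 26094 genes, after the listed transcripts of each gene had been summed, and all 10 were found. RNA sequencing had been done on 4T1, a line derived from a spontaneous mouse mammary carcinoma. In the Limch1_OE group (n = 3 libraries) the cells stably carried the PLVX-ires-neo lentiviral vector with mouse LIMCH1, and in the Vector group (n = 3 libraries) they stably carried the empty vector. Both groups had thus been infected and antibiotic-selected, with the same start of selection and the same serum percentage listed for every library. The titles assign the groups, since the genotype label reads Limch2_OE and Limch3_OE for the second and the third Limch1_OE library. Whether the 3 libraries of a group are separate infections or cultures is not given in the labels. The p-values therefore reflect the scatter among these libraries only, and that scatter may be technical. Uninfected cells were not analysed here.

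Most TRIM proteins share a RING domain, 1 or more B-boxes and a coiled coil, and most of those described here end in a PRYSPRY domain that recognises the target. The RING makes most of them E3 ubiquitin ligases. Type I interferon drives transcription of many of them through the interferon-stimulated response element in promoters. The proteins in turn bind viral capsids or place ubiquitin on sensors, adaptors and transcription factors of the interferon and NF-kB pathways, some as activators and some as brakes.

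Values are FPKM, fragment counts scaled to transcript length and library size, so levels can be set side by side between genes. Their sum over all genes was 421767 to 425064 in the Limch1_OE libraries and 414837 to 416242 in the Vector libraries, with an unknown depth. Limch1 itself was at 23.96, 23.31 and 25.69 FPKM in the Limch1_OE libraries and at 0.25, 0.15 and 0.1 FPKM in the Vector libraries (exact two-sided permutation p = 0.1, the smallest that 3 against 3 allows). On the second principal component, which held 8.98% of the variance, Limch1_OE replicate 1 stood apart from the other Limch1_OE libraries. Without it no log2 fold change of a tested member moved by more than 0.05. The 8 epithelial markers summed to 1494.48 to 1652.04 FPKM with Limch1_OE and to 1567.95 to 1639.41 FPKM with Vector. Of them 4 fell (Cdh1, Cldn3, Cldn7 and Epcam) and 1 rose (Krt7), where 14.4% of all tested genes fell and 20.2% rose. The part of these shifts in the results was not tested. Of 12 leukocyte markers, 6 were in the table and summed to at most 0.23 FPKM with Limch1_OE and 0.4 FPKM with Vector, with Ptprc at 0.01 FPKM or less in every library. The 3 fibroblast markers analysed summed to at most 0.09 FPKM with Limch1_OE and 0.07 FPKM with Vector, and the 4 endothelial markers to at most 0.32 FPKM with Limch1_OE and 0.43 FPKM with Vector.

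Promoters of the members are shown as description, and a link between their sequence and the changes given below was not tested. RefSeq gives a window of 300 bases, from 250 before to 50 after the gene start, for 9 of the 10 members on GRCm38.p6, the assembly of mm10; Trim14 has no entry. The sequences below are the 110 bases around the matches to the core of the interferon-stimulated response element, 5′ to 3′ on the strand of the gene. Capitals mark TTTCNNTTTC or its reverse complement GAAANNGAAA, in which 2 bases lie between the repeats, and TTTCNTTTC or GAAANGAAA, with 1 base between them. Matches of both kinds can overlap, as they do in Trim12c, Trim12a and Trim34a.
Trim30a, chr7:104465153-104465262, minus strand: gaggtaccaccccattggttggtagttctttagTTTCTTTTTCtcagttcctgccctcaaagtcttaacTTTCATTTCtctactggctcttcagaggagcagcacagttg
Trim30d, chr7:104507814-104507923, minus strand: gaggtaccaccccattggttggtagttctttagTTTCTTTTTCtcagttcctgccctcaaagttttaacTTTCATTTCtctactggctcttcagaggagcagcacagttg
Trim30c, chr7:104400821-104400930, minus strand: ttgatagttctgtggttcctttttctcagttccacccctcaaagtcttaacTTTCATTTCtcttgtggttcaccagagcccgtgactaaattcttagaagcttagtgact
Trim12c, chr7:104353307-104353416, minus strand: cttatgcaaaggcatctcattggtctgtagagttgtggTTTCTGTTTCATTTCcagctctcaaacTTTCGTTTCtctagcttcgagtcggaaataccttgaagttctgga
Trim12a, chr7:104315446-104315555, minus strand: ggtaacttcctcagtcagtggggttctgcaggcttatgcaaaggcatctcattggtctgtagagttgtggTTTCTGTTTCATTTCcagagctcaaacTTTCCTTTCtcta
Trim34a, chr7:104244397-104244506, plus strand: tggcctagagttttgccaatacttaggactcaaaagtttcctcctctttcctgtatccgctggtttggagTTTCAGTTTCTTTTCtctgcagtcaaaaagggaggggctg
Trim21, chr7:102565433-102565542, minus strand: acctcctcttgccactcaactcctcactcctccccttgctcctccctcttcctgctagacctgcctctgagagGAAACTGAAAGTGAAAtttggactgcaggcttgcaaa
Trim26, chr17:36836938-36837047, plus strand: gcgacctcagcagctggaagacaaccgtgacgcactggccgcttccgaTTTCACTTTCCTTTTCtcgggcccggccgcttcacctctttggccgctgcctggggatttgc

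Of the 9 windows, 7 held the core with 2 bases between the repeats, 6 held the core with 1 base, and 8 held either; that of Trim30b held neither, and it lies 11238 bases from the GENCODE start of that gene. Over all 32851 RefSeq windows the shares were 3.44%, 3.17% and 6.27%. Both cores together stood in 5 member windows and in 0.335% of all windows. The members were chosen as linked to interferon, and copies have similar windows, so these counts are not evidence about the group. The Trim21 window carries GAAACTGAAA, beginning at base 14 after the start, overlapped by GAAAGTGAAA from base 20. The second RefSeq start of Trim30a, 19068 bases from the first, has both cores as well. In Trim30a the cores shown begin 36 bases before the start and at the start itself, and in Trim26 they begin 160 and 154 bases before it. The Trim30a and Trim30d windows were identical at 93.6% of 295 aligned bases and those of Trim12a and Trim12c at 95.0% of 260, gaps not counted, against 61.0% for Trim30a and Trim21. A match describes letters only; binding was not measured.

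Each of the 8 members with enough mRNA to be tested fell in Limch1_OE, and the 3 tested Trim30 genes fell the most. Trim30a was 14.6-fold, Trim30c 23-fold and Trim30d 43-fold lower, Trim12c and Trim34a were 3.19-fold and 3.75-fold lower, Trim21 and Trim14 2.59-fold and 2.57-fold lower, and Trim26 1.49-fold lower, as ratios of mean FPKM in Vector over Limch1_OE. Trim30b and Trim12a did not reach 1 FPKM in any library and were not tested. A gene was tested when it reached 1 FPKM in at least 3 libraries, and the test was limma on log2(FPKM + 1), Limch1_OE minus Vector, with Benjamini-Hochberg adjustment over 11842 genes and a threshold of 0.05. Of those genes 14.4% were called lower and 20.2% higher, 34.6% in all (1706 lower and 2388 higher; 2271 lower and 1681 higher with median of ratios scaling). In 20.5% every Limch1_OE library lay below every Vector library, and in 28.6% above. Trim30c and Trim30d entered the test through the Vector libraries alone, so they had to differ, and the count over tested members is not evidence about the group. The other 6 tested members reached 1 FPKM in every library. Fewer cells with a given mRNA and less of it per cell cannot be told apart in these bulk libraries.

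**Figure D1:**
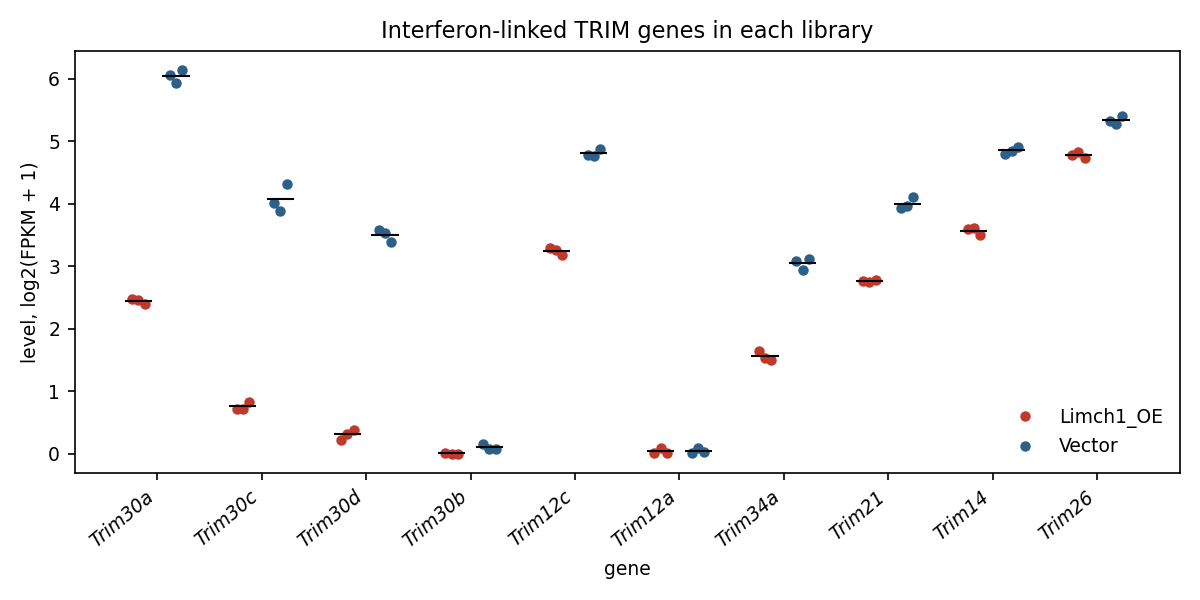
Level of each member as log2(FPKM + 1) in the 3 Limch1_OE libraries (red, left) and the 3 Vector libraries (blue, right); points are libraries and black lines are means. For the 8 tested members every red point lies below every blue point, with the widest gap for Trim30a, at 4.25 to 4.57 FPKM in Limch1_OE and 59.85 to 69.37 FPKM in Vector; Trim12a lies near 0 in both groups.

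Trim30a (ENSMUSG00000030921, mm10 chromosome 7, 104409025 to 104465193, minus strand) encodes a ligase that in mouse macrophages holds back Toll-like receptor signalling by removing TAB2 and TAB3. It was at 4.57, 4.52 and 4.25 FPKM in the Limch1_OE libraries and at 65.8, 59.85 and 69.37 FPKM in the Vector libraries. It had the highest level of the 10 members in Vector and the fifth highest in Limch1_OE, and the groups were far apart beside a spread of a few FPKM. Its log2 fold change of -3.60 (SE 0.07, limma adjusted p = 1.89e-09) was the 15th lowest of all tested genes.

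Trim30c (ENSMUSG00000078616, chromosome 7, 104382065 to 104400837, minus strand) lies next to Trim30a and has 1 annotated transcript. Its level was 0.65, 0.65 and 0.77 FPKM in Limch1_OE, against 15.09, 13.71 and 18.88 FPKM in Vector. Vector replicate 3 was the highest library, and none of the Limch1_OE libraries reached 1 FPKM. Its log2 fold change came to -3.31 (SE 0.11, limma adjusted p = 8.4e-08). Trim30d (ENSMUSG00000057596, chromosome 7, 104470014 to 104507849, minus strand) stood at 0.17, 0.25 and 0.3 FPKM in the Limch1_OE libraries, against 10.96, 10.52 and 9.45 FPKM in Vector. Its 3 Limch1_OE libraries were all close to 0, and its log2 fold change came to -3.19 (SE 0.09, limma adjusted p = 2.46e-08). Trim30b (ENSMUSG00000052749, chromosome 7, 104355382 to 104369884, minus strand) was near 0 throughout, at 0.01, 0 and 0 FPKM in the Limch1_OE libraries, against 0.12, 0.05 and 0.05 FPKM in Vector.

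The order within the Trim30 genes depended on the scale. Adding 1 FPKM before taking logs compresses changes that end below 1 FPKM, and with 0.1 FPKM added in its place the log2 fold changes were -3.84 for Trim30a, -4.33 for Trim30c and -4.95 for Trim30d. The log2 difference Trim30a minus Trim30d within a library averaged 2.14 ± 0.12 in Limch1_OE and 2.54 ± 0.18 in Vector with 1 FPKM added, and 3.76 ± 0.34 in Limch1_OE and 2.64 ± 0.19 in Vector with 0.1 FPKM added (SD, n = 3 each; exact two-sided permutation p = 0.1 for both, the smallest possible). The sign of that comparison thus reversed with the pseudocount. Against Trim12c, Trim34a and Trim21, Trim30a fell further by 2.03, 2.10 and 2.36 with 1 FPKM added and by 2.18, 1.98 and 2.48 with 0.1 FPKM added. For each of these the exact permutation p was 0.1, and the Benjamini-Hochberg value over the 4 pairs was 0.1 as well, so no pair could pass the threshold.

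Trim12c and Trim12a are, with Trim30 and mouse Trim5, rodent relatives of the retrovirus restriction factor TRIM5-alpha of primates. Trim12c (ENSMUSG00000057143, chromosome 7, 104338754 to 104353362, minus strand) was at 8.73, 8.58 and 8.04 FPKM in the Limch1_OE libraries, against 26.29, 26.09 and 28.39 FPKM in Vector. The Limch1_OE libraries all lay far below the Vector ones, and its log2 fold change came to -1.56 (SE 0.06, limma adjusted p = 1.71e-07). Trim12a (ENSMUSG00000066258, chromosome 7, 104299894 to 104315466, minus strand) had 0.01, 0.07 and 0.01 FPKM in Limch1_OE libraries, against 0.01, 0.07 and 0.02 FPKM in Vector. Its promoter window resembles that of Trim12c, and a link between window and level was not tested. The groups overlapped, and 2 of its 6 annotated transcripts were analysed. Its listed principal transcript encodes 297 codons, against 497 codons for either transcript of Trim12c.

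Trim34a (ENSMUSG00000056144, chromosome 7, 104244457 to 104262234, plus strand) is the first of the members along the chromosome 7 cluster; human TRIM34 acts with TRIM5-alpha on retroviral capsids. Its level was 2.13, 1.88 and 1.82 FPKM in Limch1_OE libraries, against 7.5, 6.68 and 7.69 FPKM in Vector. The groups did not overlap, with a log2 fold change of -1.49 (SE 0.08, limma adjusted p = 2.9e-06). It has a near-identical copy, Trim34b, which was at 2.77, 2.72 and 3.22 FPKM in the Limch1_OE libraries, against 10.78, 11.73 and 11.27 FPKM in Vector. Of the stretches of 50 bases in the most abundant Trim34a transcript, 62.2% also occur in another gene. Trim34b holds 41.5%, and others lie in the overlapping antisense gene Gm47248, which has no listed values. The split of reads between Trim34a and Trim34b is thus uncertain. Trim34a and Trim34b together were at 4.85 ± 0.225 FPKM in Limch1_OE cells, against 18.6 ± 0.361 FPKM in Vector cells (SD, n = 3 each), 3.83-fold lower.

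The same measure was lower for the other members. For the most abundant Trim12c transcript 33.4% of 50-base stretches occur in other genes, 24.5% in Trim5, which was at 0.17, 0.13 and 0.18 FPKM in the Limch1_OE libraries, against 0.56, 0.46 and 0.56 FPKM in Vector. Trim30a shared 6.53% with Trim30d, Trim30d shared 6.99% with Trim30a, and Trim30c shared 0.66%. The summed level of Trim30a to Trim30d, in which reads given to the wrong copy are still counted but scaled to that copy's length, was 5.4, 5.42 and 5.32 FPKM in Limch1_OE libraries, against 91.97, 84.13 and 97.75 FPKM in Vector, 17-fold lower. By this measure the values of Trim30a and Trim30c thus rest mostly on sequence that is not shared. For Trim30d only Trim30d-202 was compared, which carried 51.0, 44.2 and 58.5% of the gene in the Vector libraries. The values of Trim34a and Trim12c are less certain as single genes. Trim14 shared 8.48% with Gm16731, listed at 0.05 FPKM or less in every library, and overlaps Nans on the opposite strand. The use of strand in counting is not given in the sources used here; Nans itself stood at -0.10 on the log2 scale (limma adjusted p = 0.102) and passed as lower with median of ratios scaling (-0.16, limma adjusted p = 0.0249). Trim21 shared 0.292% and Trim26 shared none.

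Outside the cluster, Trim21 (ENSMUSG00000030966, chromosome 7, 102557921 to 102565486, minus strand) encodes the cytosolic antibody receptor and ubiquitin ligase also known as Ro52. It was at 5.8, 5.73 and 5.88 FPKM in the Limch1_OE libraries, against 14.18, 14.65 and 16.24 FPKM in Vector. The Limch1_OE libraries had an SD of 0.0751 FPKM and lay below each Vector library, and its log2 fold change came to -1.23 (SE 0.07, limma adjusted p = 2.12e-06). Trim14 (ENSMUSG00000039853, chromosome 4, 46493781 to 46536141, minus strand) lacks a RING and serves as an adaptor of MAVS at mitochondria in human cells. It was at 11.08, 11.21 and 10.27 FPKM in Limch1_OE, against 26.8, 27.76 and 28.97 FPKM in Vector. Its fold change was close to that of Trim21, at -1.28 (SE 0.06, limma adjusted p = 5.28e-07).

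Trim26 (ENSMUSG00000024457, chromosome 17, 36837134 to 36859398, plus strand), in the MHC region, encodes a ligase that degrades nuclear IRF3. Its level was 26.34, 27.47 and 25.4 FPKM in Limch1_OE libraries, against 38.87, 37.84 and 41.25 FPKM in Vector. The groups did not overlap, but the change was the smallest of the 8, with a log2 fold change of -0.56 (SE 0.05, limma adjusted p = 1.19e-04). Trim26 was the member with the highest level in Limch1_OE and took 44.3, 45.5 and 44.8% of the members' summed FPKM there, against 18.9, 19.2 and 18.7% in Vector. Trim30a took 7.7, 7.5 and 7.5% in Limch1_OE and 32.0, 30.3 and 31.5% in Vector. The leading member by level was thus Trim26 in Limch1_OE and Trim30a in Vector. In Limch1_OE the order after Trim26 was Trim14, Trim12c, Trim21, Trim30a, Trim34a, Trim30c and Trim30d, and in no library did the order of these 8 change. In Vector the order by mean was Trim30a, Trim26, Trim14, Trim12c, Trim30c, Trim21, Trim30d and Trim34a. Trim14 and Trim12c were close, at 27.8 ± 1.09 and 26.9 ± 1.27 FPKM (SD, n = 3 each), with Trim14 the higher in each Vector library. Trim30c and Trim21, at 15.9 ± 2.68 and 15 ± 1.08 FPKM (SD, n = 3 each), changed order in Vector replicate 2, at 13.71 and 14.65 FPKM.

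The transcripts behind the sums were less steady than the sums. Of 19905 transcripts tested in the same way, 4.12% were lower and 3.12% higher. Trim30a-201 (3771 bases, 8 exons, 496 codons) carried at least 95.1% of Trim30a in each library and fell by 3.60 (SE 0.08, limma adjusted p = 3.64e-05). Both tested Trim30d transcripts fell by 2.45, but they reached 1 FPKM in Vector libraries alone, so the filter fixed their direction. Trim12c-201 fell by 1.69 (SE 0.08, limma adjusted p = 4.12e-04), whereas Trim12c-202, which has the same coding length and a shorter transcript, was at 2.06 ± 0.486 FPKM in Limch1_OE cells, against 4.15 ± 0.772 FPKM in Vector cells (SD, n = 3 each) and did not pass (limma adjusted p = 0.068). Trim14-201, with 440 codons, fell by 1.34 (SE 0.09, limma adjusted p = 0.00122). Trim14-202, with 283 codons, was at 1.11 ± 0.739 FPKM in Limch1_OE cells, against 0.957 ± 0.172 FPKM in Vector cells (SD, n = 3 each), a log2 fold change of 0.04 (SE 0.31, limma adjusted p = 0.952). Trim21-201 fell by 1.28 (SE 0.11, limma adjusted p = 0.00352).

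Trim26 shows how far a transcript value can swing while the sum over its gene varies little. Trim26-201 and Trim26-205 have the same coding length, 1635 bases, and differ by 11 bases in total length. Trim26-201 was at 7.78, 17.4 and 18.25 FPKM in the Limch1_OE libraries, against 17.33, 33.15 and 24.11 FPKM in Vector. Trim26-205 was at 14.01, 7.81 and 4.38 FPKM in the Limch1_OE libraries, against 17.24, 0.61 and 13.4 FPKM in Vector. In both groups the library highest for Trim26-201 was the lowest for Trim26-205, and the library lowest for Trim26-201 was the highest for Trim26-205. Neither transcript passed alone (limma adjusted p = 0.282 and 0.907). The call of Trim26 therefore rests on the sum: when its most abundant transcript alone was used, the log2 fold change was -0.78 with a limma adjusted p of 0.205. Trim34a was similar, with 3 transcripts of 485 codons whose shares varied between libraries. Trim34a-201 fell by 1.03 (limma adjusted p = 0.0398) and Trim34a-203 changed by -1.43 (limma adjusted p = 0.0545). Trim34a-203 reached 1 FPKM in Vector libraries alone, so the filter fixed its direction.

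**Figure D2:**
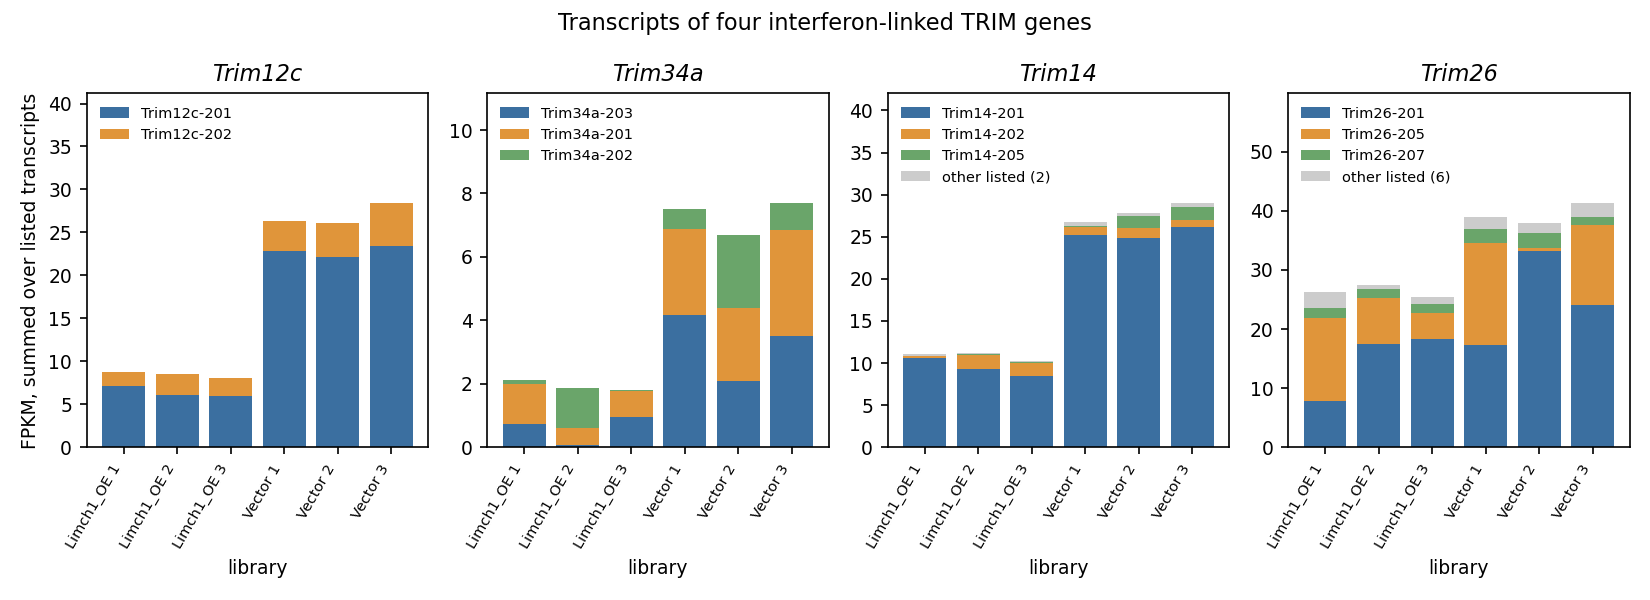
FPKM of the listed transcripts of Trim12c, Trim34a, Trim14 and Trim26, stacked, with 1 bar per library, the 3 Limch1_OE libraries left of the 3 Vector libraries; bars start at 0. The bar heights are alike within a group, as for Trim26 at 25.4 to 27.47 FPKM in Limch1_OE and 37.84 to 41.25 FPKM in Vector, while the shares of Trim26-201 and Trim26-205 vary between libraries.

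Most of the other tested TRIM family genes were not called. The table held 47 of them, of which 31 were tested, 7 fell, 3 rose and 21 did not pass, with a median log2 fold change of 0.05; 14.4% of all tested genes were lower and 20.2% higher. Besides Trim34b (-1.65, SE 0.08), the largest decreases were in Trim25, a ligase that activates the RNA sensor RIG-I, and Pml, the scaffold of PML nuclear bodies. Trim25 was at 39.42, 43.46 and 41.08 FPKM in the Limch1_OE libraries, against 108.07, 108.64 and 107.07 FPKM in Vector (log2 fold change -1.37, SE 0.05, limma adjusted p = 1.04e-07). Pml was at 28.1, 30.7 and 30.11 FPKM in the Limch1_OE libraries, against 60.6, 62.88 and 59.71 FPKM in Vector (log2 fold change -1.02, SE 0.05, limma adjusted p = 1.09e-06). Both thus changed by amounts between those of Trim12c and Trim26.

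Trim6, which lies in the chromosome 7 cluster, fell by 0.54 (SE 0.11, limma adjusted p = 0.00752). Trim8 fell by 0.39, Trim56 by 0.33 and Trim35 by 0.20. The 3 that rose were Mid1, a microtubule-associated ligase, at 4.51 ± 0.225 FPKM in Limch1_OE cells, against 2.96 ± 0.101 FPKM in Vector cells (SD, n = 3 each; log2 fold change 0.48), Trim3 (0.31) and Trim39 (0.28). When 1 transcript per gene, the most abundant, was used, 0 rose, and Trim39, at -0.02, had the opposite sign. The call of Trim39 also ended without Limch1_OE replicate 1, Vector replicate 1 or Vector replicate 3 (limma adjusted p = 0.0517, 0.0788 and 0.0542). It ended as well without a filter on low values and with protein-coding transcripts only (limma adjusted p = 0.0619 and 0.305), under 6 of 15 alternatives in all. With protein-coding transcripts only the call of Trim3 ended too (0.15, limma adjusted p = 0.166). Trim8, Trim56, Mid1, Trim3 and Trim39 were named after their values were seen. Trim28, the corepressor of KRAB zinc finger proteins and the most abundant TRIM mRNA, was at 124 ± 6.57 FPKM in Limch1_OE libraries, against 132 ± 0.943 FPKM in Vector libraries (SD, n = 3 each) and did not pass (log2 fold change -0.09, limma adjusted p = 0.174).

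**Figure D3:**
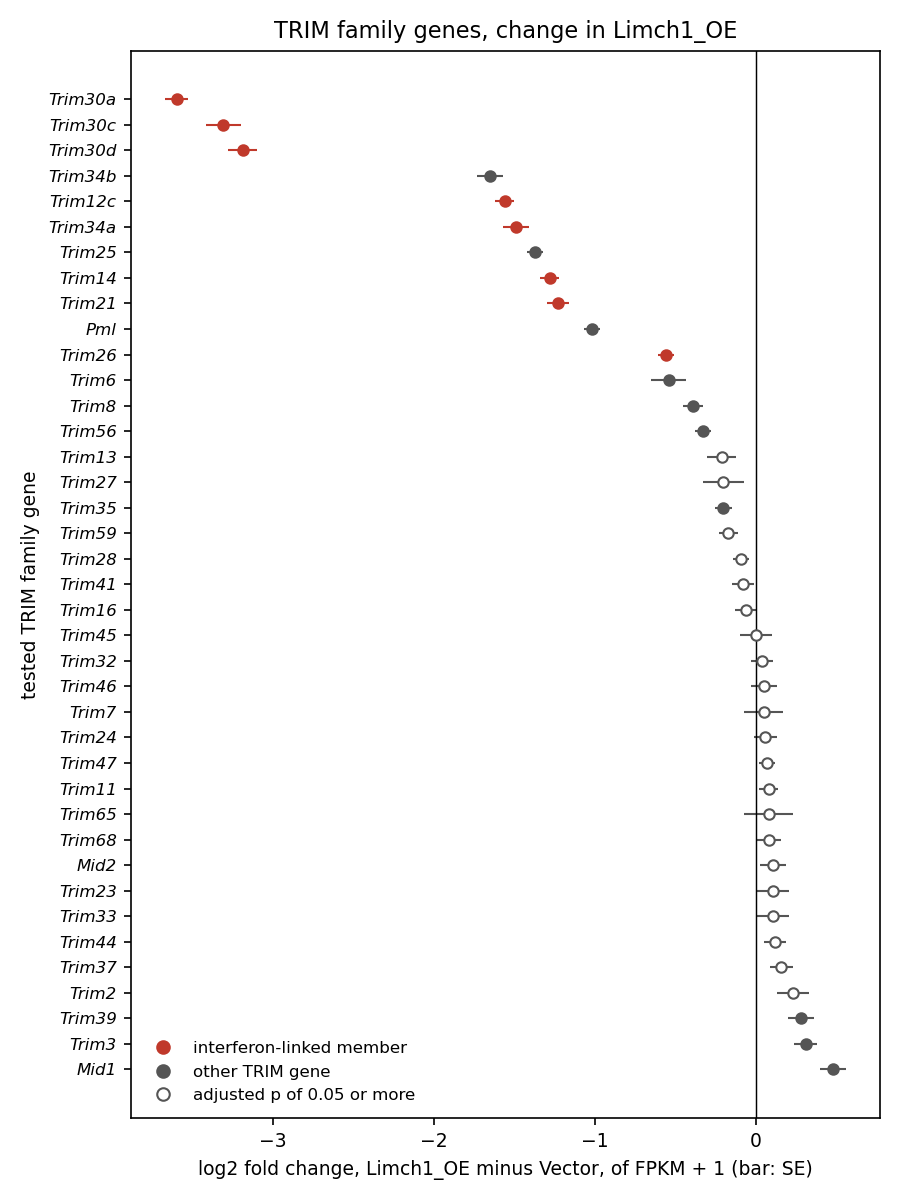
Log2 fold change of FPKM + 1, Limch1_OE minus Vector, with its SE, for the 8 tested members (red) and the 31 other tested TRIM family genes (grey), from the lowest at the top; open circles did not pass an adjusted p of 0.05. Trim30a, Trim30c and Trim30d stand apart at -3.60 to -3.19, Trim34b, Trim25 and Pml lie among the members, and most other genes lie near 0.

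The genes next to the members were mixed. Within 500 kb of the Trim34a to Trim30d cluster 5 other genes were tested, and 3 of them fell: Trim34b, Trim6 and Usp17la, a deubiquitinase gene 349 kb away (log2 fold change -1.17, SE 0.10, limma adjusted p = 5.68e-05). Dnajc19-ps and Gm5900 did not pass. Near Trim21 none of 7 fell and 1, Xndc1, rose by 0.25. Its closest tested neighbours, the relative Trim68 (0.08) and the ribonucleotide reductase gene Rrm1 (0.09), did not pass. Of 8 genes near Trim14, Coro2a (-0.47) fell and Ncbp1 (0.21) and Anp32b (0.15) rose, and of 6 near Trim26, H2-M3 (-0.36) fell. Over all tested genes the share that fell was 14.4%. The calls of Xndc1 and Anp32b ended under 8 and 11 of 15 alternatives and that of Coro2a under 1, with its most abundant transcript, and Xndc1 had the opposite sign (-0.04) with protein-coding transcripts only; Rrm1 passed as higher with quantile normalization (0.15, limma adjusted p = 0.0182).

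Among all tested genes, those nearest to Trim30a by Euclidean distance of the centred log2 values over the 6 libraries were Ifit1 (distance 0.169), Lgals9 (0.242), Mx2 (0.252), Tgtp1 (0.259) and Phf11d (0.294). Ifit1, an RNA-binding interferon-stimulated gene, was at 3.58, 3.46 and 3.31 FPKM in the Limch1_OE libraries, against 47.39, 46.69 and 57.84 FPKM in Vector. Those nearest to Trim21 were Mlkl (0.0871), Parp10 (0.131), Tdrd7 (0.133), Trim14 (0.141) and Tmie (0.153). Mlkl, the executioner of necroptosis, was at 35.99, 36.09 and 36.29 FPKM in the Limch1_OE libraries, against 83.05, 80.54 and 88.8 FPKM in Vector. With 2 groups of 3 libraries this distance mostly ranks genes by the size of their change.

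The genes that the TRIM proteins are known to act with changed in part. The list held sensors, adaptors, transcription factors, conjugating enzymes and other partners or substrates, of which 50 were tested, 12 fell, 5 rose and 33 did not pass, where 14.4% of all tested genes fell and 20.2% rose; the median log2 fold change was -0.04, beside 0.04 over all tested genes. Without Vector replicate 1 the number that rose was 2, and without Vector replicate 2 or Limch1_OE replicate 2 it was 3. The decreases of at least 0.5 were in the nucleic acid sensors Ifih1, Ddx58, Tlr3 and Cgas, the adaptor Tmem173, the transcription factors Irf5 and Irf7, and Ifi35 and Nmi. Ifih1, the RNA sensor MDA5, was at 6.16, 5.71 and 4.97 FPKM in the Limch1_OE libraries, against 19.86, 19.5 and 21.04 FPKM in Vector (log2 fold change -1.68, SE 0.08). Ddx58, the sensor RIG-I, was at 39.93, 33.29 and 36.82 FPKM in the Limch1_OE libraries, against 88.33, 85.9 and 87.8 FPKM in Vector (-1.23, SE 0.06). Neither gene had overlapping groups, and both passed the test (limma adjusted p = 6.43e-07 and 1.63e-06).

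Ifi35 and Nmi, which form a complex in human cells, fell by 1.73 and 0.87. Irf5, Cgas and the STING gene Tmem173 fell by 0.88, 0.63 and 0.62 (the most abundant Tmem173 transcript alone did not pass, limma adjusted p = 0.0924), the endosomal RNA sensor gene Tlr3 fell by 1.08 and Irf7 fell by 3.97. Tab2 and Tab3, targets of Trim30a, were at 44.4 ± 1.76 and 7.58 ± 1.15 FPKM in Limch1_OE cells, against 47.8 ± 2.05 and 7.74 ± 0.498 FPKM in Vector cells (SD, n = 3 each; limma adjusted p = 0.154 and 0.817). With median of ratios scaling Tab2 passed as lower (-0.16, limma adjusted p = 0.0405). Mavs, the partner of Trim14, was at 27.1 ± 0.247 FPKM in Limch1_OE cells, against 28 ± 1.05 FPKM in Vector cells (SD, n = 3 each; limma adjusted p = 0.497). Irf3, the target of Trim26, rose by 0.34, but its most abundant transcript alone did not pass (0.81, limma adjusted p = 0.146). Vcp, the unfoldase used with Trim21, was at 150 ± 5.56 FPKM in Limch1_OE cells, against 152 ± 7.86 FPKM in Vector cells (SD, n = 3 each; limma adjusted p = 0.774). Tab2, Tab3, Mavs, Irf3 and Vcp were named for their roles, after their values were seen.

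**Figure D4:**
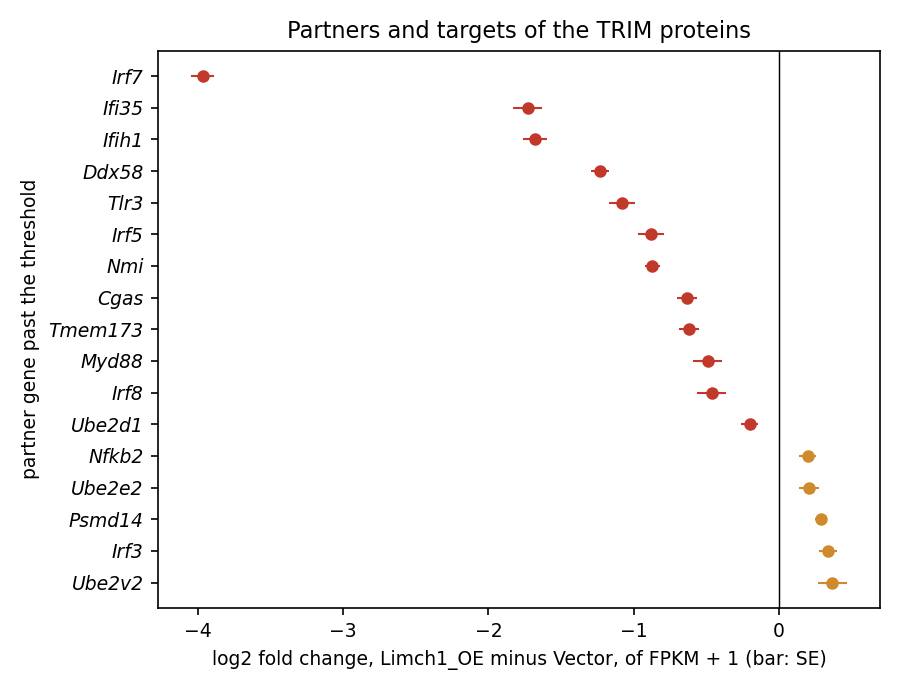
Log2 fold change of FPKM + 1, Limch1_OE minus Vector, with its SE, for the 17 partner genes past an adjusted p of 0.05, from the lowest at the top. The 12 that fell reach from -3.97 for Irf7 to -0.20 for Ube2d1, and the 5 that rose lie between 0.20 and 0.37.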

How the data were processed

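RNA from 3 Limch1_OE and 3 Vector libraries of 4T1 cells was compared. The deposited table gives FPKM per transcript and library, per the file headers; StringTie 2.2.1, featureCounts 2.0.1, STAR 2.7.10 and fastp 0.23.2 stand in the submitters' processing notes with build mm10, without their roles. The sources used here give no annotation release, use of strand or treatment of multi-mapped reads. The 77865 transcripts were summed per gene; GENCODE M21 named 26033 of 26094 genes. No 2 columns were identical. No library showed whole-read steps (at most 31.5% of low values of short genes came out whole within 0.1 read, at any depth tried), so depth is unknown, no interval for counting error is given and precision is the SD over 3 libraries.

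Genes that reached 1 FPKM in 3 or more libraries were tested with limma 3.58.1 in R 4.3.3 (intensity trend) on log2(FPKM + 1), which understates changes of low genes. The limma step was tested on simulated data with known changes. Python 3.11.15 and Biopython 1.88 served for the rest. Alternatives varied pseudocount, filter, scaling, transcripts used, variance model, replicate block and libraries. Members and lists were chosen with earlier results of these data known, and the promoter motifs, the shared 50-base stretches and the sums over copies after the data were seen. The rule for named genes took all members, Limch1, other TRIM genes and partners called with a log2 fold change of at least 0.5 in size, the 3 most abundant other TRIM genes, the 5 genes nearest to Trim30a and to Trim21, and tested neighbours within 500 kb.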

Additional observations from a re-analysis of the deposited data

How the results depend on the processing

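The 8 tested members fell under 14 of 15 alternatives. The exception was the most abundant transcript, with 7, since Trim26 stood at -0.78 (limma adjusted p = 0.205). Trim30c and Trim30d passed the filter of 1 FPKM through Vector alone, so they had to differ. With at least 5 FPKM in 3 libraries, Trim30a and Trim34a also entered through Vector alone. Without a filter on low values 10 members were tested and 8 were called lower. With 0.1 FPKM added in place of 1, Trim30d stood at -4.95. No member reversed, and leaving out 1 library moved a member's log2 fold change by at most 0.12 (Trim30c, without Vector replicate 3). Same-numbered libraries hardly deviated together (correlations -0.00172, 0.0456 and 0.0592). Limch1_OE replicates 2 and 3 correlated best with their own number and replicate 1 did not, with all pairs between -0.0674 and 0.0592. With the replicate block 8 members, 1589 lower and 2219 higher genes were called, and no member call changed. With the most abundant transcript 999 genes were lower and 997 higher, with 0 other TRIM genes higher and 1 partner higher. Protein-coding transcripts alone gave 1534 higher genes. Partners that rose numbered 5, and 2 without a filter on low values, 3 with median of ratios scaling and 3 without the intensity trend; without 1 library they numbered 2 to 5 (2 without Vector replicate 1, 3 without Limch1_OE replicate 2 or Vector replicate 2). Partners that fell numbered 12, and 10 to 17 over the alternatives, with 17 under median of ratios scaling. The causes were not tested. Without 1 library the lower genes numbered 1285 to 1553 and the higher genes 1597 to 2225. Depth is unknown, so values near 0, as of Trim30b, Trim12a and Trim30d in Limch1_OE, have no counting limit.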
